A study of Rattus norvegicus with 24 samples.

Results

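Transcripts of 9 cathepsin genes (Ctsa, Ctsb, Ctsc, Ctsd, Ctsh, Ctsk, Ctsl, Ctss and Ctsz) were followed in the thyroid of male Sprague-Dawley rats that were adult. They were chosen by gene symbol, as every probe set whose single annotated symbol is one of these names, which gave 9 of the 14217 genes with such a symbol and 11 of the 31042 probe sets that are not hybridisation controls. Ctsc and Ctsl had 2 probe sets each and the other genes 1; a gene is represented by its brightest probe set. All 11 passed the filter on dim probe sets that left 18625 for testing, so no member was lost to it.

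The arrays held 24 samples of total thyroid RNA in 8 groups of 3. Control rats had normal food and water, others drank water with potassium perchlorate at 95 mg per liter, ate an iodine-deficient diet, or received both. Each of these was sampled at 2 times. After 2 months and 1 day, perchlorate had been given for 1 day, and after 2 months and 14 days it had been given for 14 days. The deficient diet was fed for the whole of either period. The series asks how iodine deficiency and perchlorate, which blocks iodide uptake by the sodium iodide symporter, change gene expression in the gland. No label ties a sample to its own animal. The p-values therefore rest on the scatter of arrays within groups, pooled over all 8 groups, part of which may be technical.

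Thyroid hormone is stored in the follicle lumen as thyroglobulin, and cathepsins are the proteases that cut it free. Follicular cells secrete some cathepsins to the lumen, where the extracellular store is loosened, and take thyroglobulin up into endosomes and lysosomes, where cysteine and aspartic cathepsins complete the work. The same enzymes serve other cells of the gland. Macrophages and other antigen-presenting cells use Ctss to trim the invariant chain of MHC class II, and Ctsk is the collagen-cleaving cathepsin of osteoclasts, also made by fibroblasts. An array of whole gland RNA does not separate these sources, and more cells of a type cannot be told apart from more RNA per cell. The arrays measure transcripts only, so the cleavage of thyroglobulin itself was not observed.

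Values are log2(intensity + 16) after quantile normalization, a log2 fold change is a difference of group means on that scale, ± is the SD over 3 arrays, and SE is the standard error of a fold change in the limma model fitted to all 24 arrays. Calls were made where the Benjamini-Hochberg adjusted p over all 18625 probe sets was under 0.05, and each adjusted p below is from that limma model. Counts of cathepsins at an unadjusted limma p under 0.05 are also given. The share of all probe sets at that threshold was not counted, so those counts have no background beside them. The markers of the labelled tissue were bright: thyroglobulin (Tg) lay at percentile 99.9 of mean signal over all probe sets and the thyroid transcription factors Foxe1 and Pax8 at 99.3 and 98.6. Perchlorate replicate 18 of day 1 stood apart, with a median absolute deviation from the other arrays of 0.675, followed by control replicate 22 of day 1 at 0.287, against 0.130 to 0.211 in the other 22. Both were kept, and a call on a cathepsin that changes when both are left out is given both ways.

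The largest differences among the cathepsins lay at day 14, and Ctss and Ctsh had the 2 widest spans of group means over the series, 1.91 and 1.43. With the diet plus perchlorate at day 14, 3 of the 9 genes were called higher and 0 lower (Ctss, Ctsh and Ctsc), where 6.1% of all probe sets were called higher. With perchlorate alone at day 14 it was 2 of 9 (Ctss and Ctsh, background 2.9%), and with the diet alone 0 of 9 (background 0.193%, 3 members at an unadjusted p under 0.05). The median log2 fold change of the 9 genes was 0.44, 0.26 and 0.16 in these comparisons, beside -0.06, -0.04 and -0.02 over all probe sets tested. The 3 comparisons share the same 3 control arrays.

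**Figure D1:**
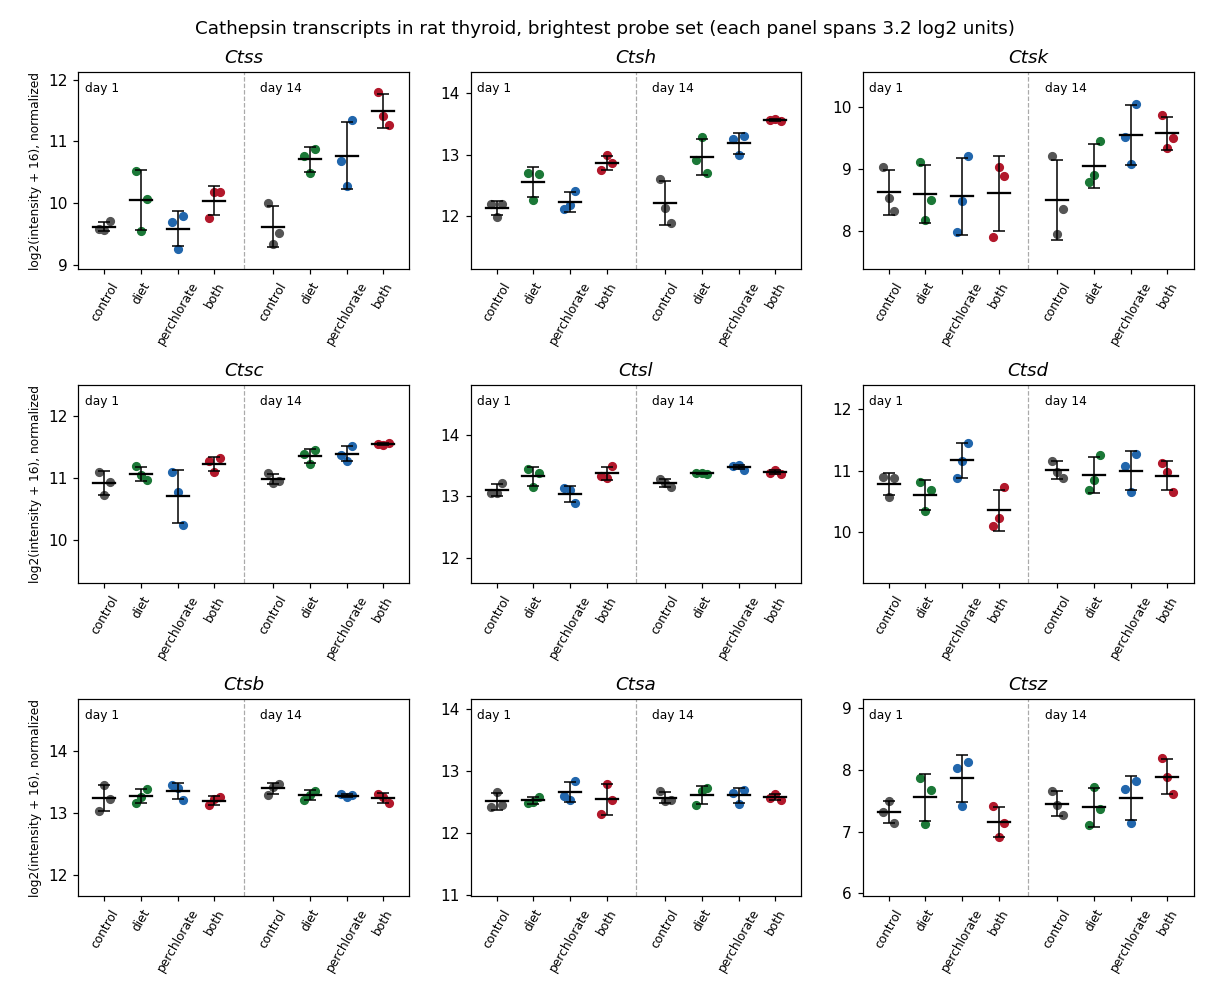
Level of each cathepsin on every array, as log2(intensity + 16) after normalization, in control, iodine-deficient diet, perchlorate and combined groups at day 1 (left of the dashed line) and day 14 (right); points are arrays, horizontal bars the means and whiskers the SD (n = 3). Every panel spans the same range, so Ctss, whose group means lie between 9.59 and 11.49, can be set beside Ctsb, whose group means lie between 13.20 and 13.40.

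Ctss encodes cathepsin S, a cysteine endopeptidase that stays active at neutral pH. In the day 14 controls its arrays read 9.35, 9.52 and 10.00. On the deficient diet they read 10.49, 10.76 and 10.88, with perchlorate 10.28, 10.69 and 11.35, and with both 11.28, 11.41 and 11.80. No array of a treated group overlapped the controls, and the arrays given both mostly lay above those given either alone, with perchlorate replicate 42 (11.35) the exception. In the deposited linear intensities the controls ran from 630 to 952 and the group given both from 2285 to 3491. The rise with both was 1.87 (SE 0.26, adjusted p = 0.000103), a fold of 3.67, and that call held under all 16 alternative settings. With perchlorate alone it was 1.15 (SE 0.26, adjusted p = 0.0134), a fold of 2.22, and that call was lost on leaving out perchlorate replicate 42 (adjusted p = 0.115). It was also lost without control replicate 44 (0.08) and without control replicate 47 (0.0559). With the diet alone the difference was 1.09 (SE 0.26) and did not pass (adjusted p = 0.0722); it passed when the 2 day 1 arrays that stood apart were left out (0.0474), when the fit held the compared groups alone (0.0191) and with array weights (0.00611), and the range over its alternatives was 0.00611 to 0.285.

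Ctsh encodes cathepsin H, a cysteine protease that trims residues from the amino terminus of proteins. Its day 14 controls read 11.90, 12.14 and 12.61, the diet group 12.70, 12.91 and 13.28, the perchlorate group 12.99, 13.26 and 13.31, and the group given both 13.55, 13.56 and 13.58. Again the treated arrays all lay above the controls, and all 3 arrays given both lay above every other array of the series. Their spread was small, with an SD of 0.02 against 0.36 in the controls. The rise with both was 1.35 (SE 0.17, adjusted p = 3.38e-05), a fold of 2.55, and with perchlorate alone 0.97 (SE 0.17, adjusted p = 0.00179), a fold of 1.96. Both calls held under all 16 alternatives. The diet alone gave 0.75 (SE 0.17, adjusted p = 0.0515), which passed under 4 of 16 alternatives: without control replicate 43 (0.0273), without the 2 arrays that stood apart (0.0304), with array weights (0.00288) and with a stricter filter (0.0459), in a range up to 0.397.

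Ctsc encodes dipeptidyl peptidase 1, which removes pairs of residues and activates the serine proteases of immune cell granules. On its brightest probe set the day 14 controls read 10.91, 10.96 and 11.08 and the group given both 11.54, 11.55 and 11.56, with no overlap. The rise was 0.57 (SE 0.16, adjusted p = 0.0273), a fold of 1.48. Leaving out any 1 of the 6 arrays ended that call. The adjusted p was 0.0895, 0.0652 and 0.0854 without replicates 27, 29 and 30 of the treated group, and 0.0505, 0.0976 and 0.0808 without control replicates 43, 44 and 47. On the second Ctsc probe set the difference was 0.17 (SE 0.24, adjusted p = 0.764), and on the mean of both it was 0.37 (adjusted p = 0.246). With the diet and with perchlorate alone the brightest probe set stood at 0.37 and 0.41 (adjusted p = 0.437 and 0.202), in both cases with no overlap with the controls. The difference with perchlorate passed when both arrays standing apart were left out (adjusted p = 0.0207) and with array weights (0.00992), in a range up to 0.604, and that with the diet passed with array weights (0.0256), in a range up to 0.783. The call with both treatments was also lost on the values as deposited (0.12) and with each array centred on its median (0.0769).

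Ctsk encodes cathepsin K, which cleaves collagen as well as thyroglobulin. Its day 14 controls were far apart, at 7.95, 8.35 and 9.22, and the group given perchlorate alone read 9.08, 9.52 and 10.05. The group given both read 9.34, 9.51 and 9.88, above all controls, while the perchlorate group overlapped control replicate 43. The differences were 1.04 (SE 0.37, adjusted p = 0.145) and 1.07 (SE 0.37, adjusted p = 0.0775), close in size to that of Ctss with perchlorate but with a larger error, and neither passed. Without control replicate 43, the highest control, the difference with both was 1.43 (adjusted p = 0.0313). It also passed without the 2 arrays that stood apart (0.0363), when the fit held the compared groups alone (0.0328) and with array weights (0.00314). With perchlorate alone it passed with array weights (0.0177). Over the alternatives of the difference with both, the adjusted p ran from 0.00314 to 0.298.

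Ctsl, Ctsb and Ctsd encode the endopeptidases best known from thyroglobulin breakdown in follicular lysosomes, and none of them was called at day 14 in the fit of all 24 arrays. Ctsl encodes cathepsin L, a cysteine endopeptidase, and stood at 13.21 ± 0.06 in day 14 controls, 13.37 ± 0.01 on the diet, 13.47 ± 0.04 with perchlorate and 13.39 ± 0.03 with both. None of these treated arrays overlapped the controls, yet the differences of 0.16, 0.26 and 0.17 (SE 0.09) did not pass (adjusted p = 0.624, 0.124 and 0.267). With perchlorate the difference passed when both arrays standing apart were left out (adjusted p = 0.0347) and with array weights (0.0121), in a range up to 0.771, and with both it passed with array weights (0.0492). The second Ctsl probe set gave 0.22, 0.39 and 0.22, again with no call. Ctsb encodes cathepsin B, a cysteine protease with both endopeptidase and carboxypeptidase action. It stood at 13.40 ± 0.09 in the day 14 controls and 13.24 ± 0.08 with both, a difference of -0.15 whose 95% interval ran from -0.36 to 0.06. Ctsd encodes the aspartic cathepsin D, and its difference with both was -0.09 (interval -0.52 to 0.34). Ctsa encodes a lysosomal serine carboxypeptidase that also shields β-galactosidase and neuraminidase, and its difference was 0.01 (interval -0.25 to 0.26). For Ctsb, Ctsd and Ctsa these intervals leave out a rise of the size seen for Ctsh on this scale. Ctsb and Ctsa were already bright, at percentiles 99.6 and 98.8 of mean signal. Tg, at percentile 99.9, had a mean level of 13.79. Whether the top of the scale limits such a rise was not tested. Ctsz encodes cathepsin X, a carboxypeptidase, and was the dimmest member, at percentile 57.8 of all probe sets; it stood at 0.44 with both (interval -0.07 to 0.95, adjusted p = 0.317).

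**Figure D2:**
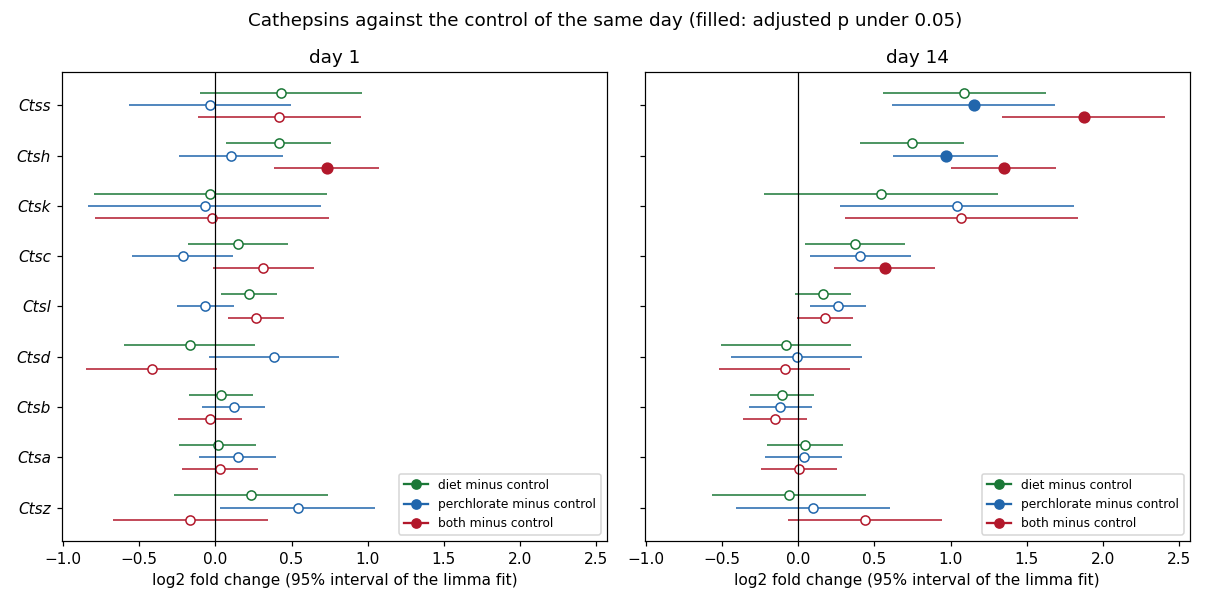
Log2 fold change of each cathepsin against the control of the same day at day 1 (left) and day 14 (right), for the diet, perchlorate and both, with 95% intervals of the limma fit; filled points have an adjusted p under 0.05. At day 14 Ctss and Ctsh lie farthest to the right, at 1.87 and 1.35 with both treatments, while Ctsd, Ctsb and Ctsa lie near 0.

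The arrays of a treated group were also counted as above the controls where no value overlapped. At day 14, 4 of 9 cathepsins lay above all controls on the diet, where 10.6% of all probe sets did, 4 of 9 with perchlorate (12.6%) and 5 of 9 with both (16.2%). None lay below. At day 1 these counts were 1 (5.79%), 0 (2.92%) and 4 (7.94%), the 4 being Ctsc, Ctsh, Ctsl and Ctss. The counts use the brightest probe set of a gene. The second Ctsc probe set overlapped the controls in each day 14 comparison and with both at day 1. The second Ctsl probe set overlapped them on the diet at day 14 and with both at day 1. On the brightest Ctsc probe set the lowest day 1 array given both read 11.105 and the highest control 11.096.

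At day 1 the diet had already been fed for 2 months, and perchlorate for only 1 day. No cathepsin passed with the diet (0 of 9, background 0.0537%, 2 at an unadjusted p under 0.05) or with perchlorate (0 of 9, where limma called 0% of all probe sets, 1 at an unadjusted p under 0.05). With both, 1 of 9 was called higher, Ctsh (background 0.446%). Ctsh read 11.998, 12.20 and 12.21 in the day 1 controls, 12.27, 12.68 and 12.70 on the diet, 12.12, 12.18 and 12.42 with perchlorate, and 12.75, 12.86 and 12.99 with both. Both groups on the diet lay above the controls with no overlap, and the perchlorate arrays overlapped the controls. The rise with both was 0.73 (SE 0.17, adjusted p = 0.0414), a fold of 1.66. It ended when any 1 array was left out, with an adjusted p of 0.0521, 0.189 and 0.12 without diet plus perchlorate replicates 2, 3 and 6 and of 0.0799, 0.162 and 0.0939 without control replicates 22, 21 and 24. With the diet alone the difference was 0.42 (adjusted p = 0.726). Ctss at day 1 read 9.57, 9.58 and 9.71 in controls, 9.55, 10.07 and 10.53 on the diet, and 9.26, 9.70 and 9.80 with perchlorate, where the difference was -0.03 (interval -0.57 to 0.50).

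Ctsd and Ctsz had the same 2 groups at the extremes of day 1. Ctsd was lowest with both, at 10.11, 10.24 and 10.74, and highest with perchlorate alone, at 10.88, 11.16 and 11.45. Ctsz likewise read 6.92, 7.14 and 7.41 with both and 7.42, 8.04 and 8.13 with perchlorate alone. The interaction of diet and perchlorate was -0.63 for Ctsd (adjusted p = 0.538) and -0.94 for Ctsz (adjusted p = 0.463), and neither passed. The highest perchlorate value of both genes came from replicate 18, the array that stood apart. The perchlorate arrays of day 1 also differed in the log2 of the summed signal of lymphocyte markers. It was 13.50 in replicate 15 and 12.29 in replicate 18, against 9.63 in replicate 16 and 9.69 to 10.22 in the day 1 controls. Its part in the levels of Ctsd and Ctsz was not tested.

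Whether the effects differed with time, or between the treatments alone and together, was tested directly. The difference between the day 14 and day 1 effects of perchlorate was 1.19 for Ctss (adjusted p = 0.15), 1.11 for Ctsk (0.39), 0.87 for Ctsh (0.0914) and 0.62 for Ctsc (0.238). 0 of 9 passed, where 0.553% of all probe sets did. At an unadjusted p under 0.05 there were 5 members, with no share of all probe sets to set beside them. The difference for Ctsh passed without control replicate 43 of day 14 (adjusted p = 0.0418) and that for Ctsc without perchlorate replicate 15 of day 1 (0.0446). Perchlorate added to the diet at day 14 gave differences of 0.78 for Ctss and 0.60 for Ctsh. Neither passed in the fit of all arrays (adjusted p = 0.305 and 0.169), and 0 of 9 were called (background 0.209%, 2 at an unadjusted p under 0.05). Perchlorate added to the diet at day 1 gave 0 of 9 (background 0.00537%, 0 at an unadjusted p under 0.05). The interaction of diet and perchlorate called 0 of 9 on day 1 (0.0107%, 2 at an unadjusted p under 0.05) and 0 of 9 on day 14 (0.0161%, 0 at an unadjusted p under 0.05), where it was -0.37 for both Ctss and Ctsh with the same adjusted p of 1.00. The controls of the 2 days gave 0 of 9 (0%, 0 at an unadjusted p under 0.05), with differences between -0.12 and 0.23.

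Averaged over both days and over the other treatment, so that 12 arrays stood against 12, the deficient diet gave 4 calls of 9, all higher (background 2.85%). Ctss rose by 0.67 (SE 0.13, adjusted p = 0.00441) and Ctsh by 0.54 (SE 0.08, adjusted p = 0.000856), and both calls held under all 33 alternatives. Ctsc rose by 0.30 (adjusted p = 0.0326), lost when any of 12 of the 24 arrays was left out (0.0504 to 0.065) and on the mean of its probe sets (0.117). Ctsl rose by 0.16 (adjusted p = 0.0446), lost when any of 18 of the 24 arrays was left out (0.0536 to 0.0865), with each array centred on its median (0.50), on the values as deposited (0.0857) and with no filter (0.104). Its second probe set gave 0.23 (adjusted p = 0.0851). Ctsd stood at -0.28 (adjusted p = 0.116). Perchlorate, averaged the same way, gave 2 calls of 9, both higher (background 2.29%): Ctsh rose by 0.50 (SE 0.08, adjusted p = 0.00179), a call that held under all 33 alternatives, and Ctss by 0.47 (SE 0.13, adjusted p = 0.0464), lost under 23 of 33, 19 of them the loss of 1 array (0.0514 to 0.0967), and lost without the 2 arrays that stood apart (0.0646). Ctsc stood at 0.14 (adjusted p = 0.397), and without those 2 arrays at 0.22 (adjusted p = 0.0237). For Ctss this average joins -0.03 at day 1 on normal diet with 1.15 at day 14.

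In order of group means, Ctss ran from perchlorate at day 1 (9.59 ± 0.29) and the controls of day 14 (9.62 ± 0.34) and day 1 (9.62 ± 0.08), through both treatments (10.04 ± 0.24) and the diet (10.05 ± 0.49) at day 1, to the diet (10.71 ± 0.20), perchlorate (10.77 ± 0.54) and both (11.49 ± 0.27) at day 14. The 3 widest steps were 0.42 (from the day 1 controls), 0.66 (from the diet at day 1) and 0.72 (from perchlorate at day 14), each above the pooled SD of its 2 groups, and only the first separated groups that did not overlap. The other neighbours differed by 0.06 or less. Ctsh followed nearly the same order, from 12.14 ± 0.12 in day 1 controls to 13.57 ± 0.02 with both at day 14. Its largest step was the last, 0.38 from perchlorate (13.19 ± 0.17) to both. For Ctsa and Ctsb the 8 group means spanned 0.146 and 0.197, with overlapping arrays between every pair of neighbours.

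The sequence before the transcription start was read for the genes that were called and for some that were not. Sequences of 8 of the 9 genes, all but Ctsb, were matched in RefSeq (rat assembly GRCr8). The 250 bases before each start were searched on both strands for 5 motifs. These were CACGTG, the E-box at the core of the CLEAR element through which TFEB acts on lysosomal genes; the full CLEAR palindrome, which is that E-box with GT before it and AC after it; GAGGAAGT, a site of the ETS factor PU.1 of myeloid cells; the site of interferon regulatory factors, which is GAAA, any 2 bases and GAAA; and the GC box GGGCGG. In all promoters of that length they occur in 5.59%, 0.203%, 2.04%, 3.41% and 30.5%. Ctss, which rose, holds a match to the interferon regulatory factor site 36 bases and a GAGGAAGT match (on the reverse strand) 17 bases before its start. Ctsc holds a GAGGAAGT match 248 bases before its start. The 30 bases around each are shown 5′ to 3′ on the plus strand, with the matches in capitals.
Ctss, chr2:185775358-185775387: atGAAACCGAAAtgaaagttcACTTCCTCg
Ctsc, chr1:151440799-151440828: taACTTCCTCaggccacaggtaattctatc

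Ctsd, which was called in no comparison, is the only one of the 8 with CACGTG, 157 and 10 bases before its start, and none holds the full CLEAR palindrome. Ctsh, called higher in 5 of the 14 comparisons, holds none of the 5 motifs, nor does Ctsk. The 250 bases before each start are printed 5′ to 3′ in the direction of the gene, with matches in capitals (for Ctsd both CACGTG and, as CCGCCC, the GC box).
Ctsd, chr1:206968822-206969071, minus strand: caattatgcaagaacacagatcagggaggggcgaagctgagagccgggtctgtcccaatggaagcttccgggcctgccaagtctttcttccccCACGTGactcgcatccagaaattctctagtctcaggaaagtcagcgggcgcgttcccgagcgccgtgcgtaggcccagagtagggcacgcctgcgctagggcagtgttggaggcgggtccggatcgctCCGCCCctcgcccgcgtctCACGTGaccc
Ctsh, chr8:99488506-99488755, plus strand: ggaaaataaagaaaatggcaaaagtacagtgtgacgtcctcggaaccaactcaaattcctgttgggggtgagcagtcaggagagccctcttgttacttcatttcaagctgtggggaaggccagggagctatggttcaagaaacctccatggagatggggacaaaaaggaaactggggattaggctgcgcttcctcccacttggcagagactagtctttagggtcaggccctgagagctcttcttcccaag
GC content was 63.2% in the Ctsd window and 50.4% in that of Ctsh. A match describes letters only, and none says whether a factor binds. Ctsk and Ctss lie close together on chromosome 2, with 1 annotated gene between them, and both are among the 5 of 9 genes whose highest group mean was that of both treatments at day 14.

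Other lysosomal genes were read as lists. With both treatments at day 14, where 6.1% of all probe sets were called higher, 1 of 28 tested lysosomal hydrolases was called higher and 0 lower, with a median log2 fold change of 0.05. The one was Acp5, tartrate-resistant acid phosphatase, at 0.98 (SE 0.21, adjusted p = 0.00472). Of 36 tested genes of the lysosomal membrane, proton pump and enzyme sorting, 1 was called higher and 0 lower (median -0.07); it was Laptm5, a membrane protein of leukocyte lysosomes, at 1.36 (SE 0.33, adjusted p = 0.00995). Among 10 other cathepsins and lysosomal peptidases Napsa, an aspartic protease, rose by 2.12 (SE 0.63, adjusted p = 0.0369) and Cpq, a lysosomal dipeptidase, fell by 0.48 (SE 0.12, adjusted p = 0.0102). Of 6 tested cystatins and other inhibitors 0 were called, with a median of 0.58; the nearest was Serpinb1a at 0.74 (adjusted p = 0.186). The list of thyroglobulin synthesis, uptake and hormone release had 1 of 15 called, the iodide symporter gene Slc5a5 at 1.70 (SE 0.19, adjusted p = 1.12e-05), and a median of -0.01.

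With perchlorate alone at day 14 (2.9% of all probe sets called higher), 0 of 28 hydrolases, 0 of 36 membrane and sorting genes, 0 of 10 peptidases and 0 of 6 inhibitors were called in the limma fit, and of the thyroglobulin list only Slc5a5 (1.52, adjusted p = 8e-05). The hydrolase with the smallest p was Npc2, which carries cholesterol in the lysosome, at 0.24 (adjusted p = 0.29), and Laptm5 stood at 0.94 (adjusted p = 0.129). With the diet alone at day 14 the same 4 lists again gave 0 calls, with Acp5 at 0.64 (adjusted p = 0.237).

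**Figure D3:**
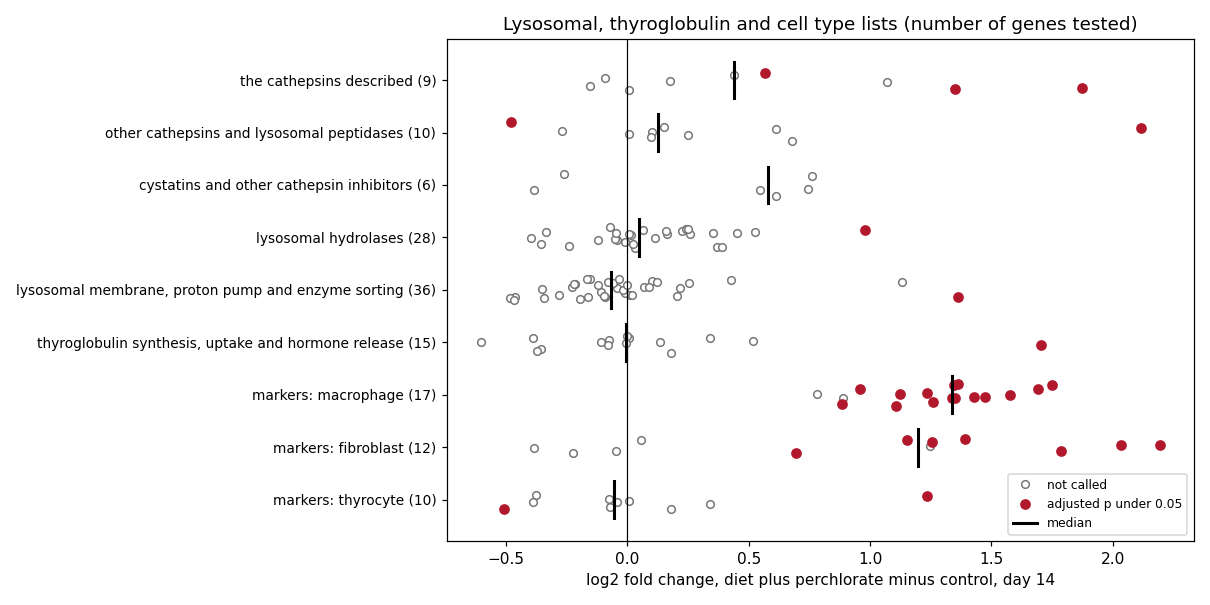
Log2 fold change of every tested gene of each list, diet plus perchlorate minus control at day 14; filled points have an adjusted p under 0.05, and black bars are list medians (0.44 for the 9 cathepsins, 0.05 for lysosomal hydrolases, 1.34 for macrophage markers). Most lysosomal and thyrocyte genes lie near 0, and macrophage and fibroblast markers lie to the right.

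Markers of other cell types moved in the same comparisons. Of all 18625 probe sets tested, 6.1% were called higher with both treatments at day 14. Among 17 tested macrophage markers 15 were called higher there and 0 lower (median 1.34). They included the IgE receptor chain Fcer1g, shared with mast cells, at 1.69 (SE 0.26, adjusted p = 0.000268), Adgre1, the F4/80 antigen, at 1.35 (adjusted p = 0.00101), and the mannose receptor Mrc1 at 1.26 (adjusted p = 0.00106). With perchlorate alone it was 6 of 17 (median 0.95, background 2.9%), and with the diet alone 1 of 17 (median 0.73, background 0.193%). The log2 of the summed signal of the 19 macrophage markers on the array was 12.55 to 13.14 in day 14 controls, 13.40 to 13.60 on the diet, 13.40 to 14.04 with perchlorate and 13.76 to 14.27 with both. At day 1 it was 12.88 to 13.10, 12.63 to 13.37, 12.57 to 13.42 and 13.11 to 13.21 in the same order. Signals were summed on the linear scale, so the brightest markers weigh most in the sum. Lyz2 had a mean log2 level of 12.29 over the arrays, and the next brightest of the 19, Fcer1g, 9.36. Of the defining markers Itgam and Cx3cr1 fell below the filter on dim probe sets. Fibroblast markers gave 7 of 12 called higher with both (median 1.20) and 6 of 12 with perchlorate (median 0.88). Thyrocyte markers had a median of -0.06 with both and 2 of 10 called, the cadherin Cdh16 higher at 1.24 (adjusted p = 0.000955) and Foxe1 lower at -0.51 (adjusted p = 0.0223). Their summed log2 signal was 15.68 to 15.70 in day 14 controls and 15.69 to 15.73 with both. Endothelial markers gave 7 of 9 called higher with both (median 0.99), MHC class II and antigen-presenting markers 2 of 10 (0.76), mast cell markers 1 of 8 (0.95) and osteoclast markers 1 of 1, Acp5. Lymphocyte, skeletal muscle and adipocyte markers gave 0 of 6, 0 of 8 and 0 of 7 in limma (medians 0.95, -0.36 and -1.68). The arrays given both were uneven in the summed log2 lymphocyte signal. It was 12.31 in replicate 29, against 10.18 and 9.93 in replicates 27 and 30 and 9.52 to 9.62 in the day 14 controls. Markers of C cells and parathyroid gave 4 of 8 called lower (median -1.18), where 512 of all 18625 probe sets were called lower. The part of other cell types in the rise of the cathepsins was not tested.

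Across arrays the cathepsins differed in how they varied with these markers, which is given as a description. Over the 22 arrays other than the 2 that stood apart, Pearson's r with the macrophage sum was 0.98 for Ctss, 0.89 for Ctsh, 0.88 for Ctsk, 0.88 for Ctsc and 0.70 for Ctsl. It was 0.47 for Ctsz, 0.31 for Ctsd, 0.28 for Ctsa and -0.38 for Ctsb. Over all 24 arrays it was 0.95 for Ctss, 0.86 for Ctsh and 0.88 for Ctsk but 0.65 for Ctsc and 0.54 for Ctsl. These arrays share their treatment groups. After each group's mean was taken off, r was 0.94 for Ctss, 0.72 for Ctsk, 0.69 for Ctsz, 0.57 for Ctsd, 0.53 for Ctsc, 0.45 for Ctsh, 0.37 for Ctsa, 0.34 for Ctsl and 0.03 for Ctsb. Ctsd and Ctsz, which were called in no comparison, were thus above Ctsc and Ctsh within groups. Ctsk varied most with the fibroblast sum, at 0.93 over all 22 arrays and 0.86 within groups. The macrophage sum was not the only one that Ctss followed. Its r was 0.91 with the fibroblast sum (0.87 within groups) and 0.84 with the mast cell sum (0.83 within groups). Ctsh stood at 0.77 with the endothelial sum and 0.76 with the fibroblast sum, but at 0.08 and 0.35 within groups. For Ctsb the highest was 0.63, with the C cell and parathyroid sum (0.26 within groups). With the thyrocyte sum, r was -0.14 for Ctss and -0.06 for Ctsh over the 22 arrays. That sum varied little, from 15.66 to 15.91 on these arrays, where the macrophage sum ran from 12.55 to 14.27. The cells from which each cathepsin transcript came were not tested.

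**Figure D4:**
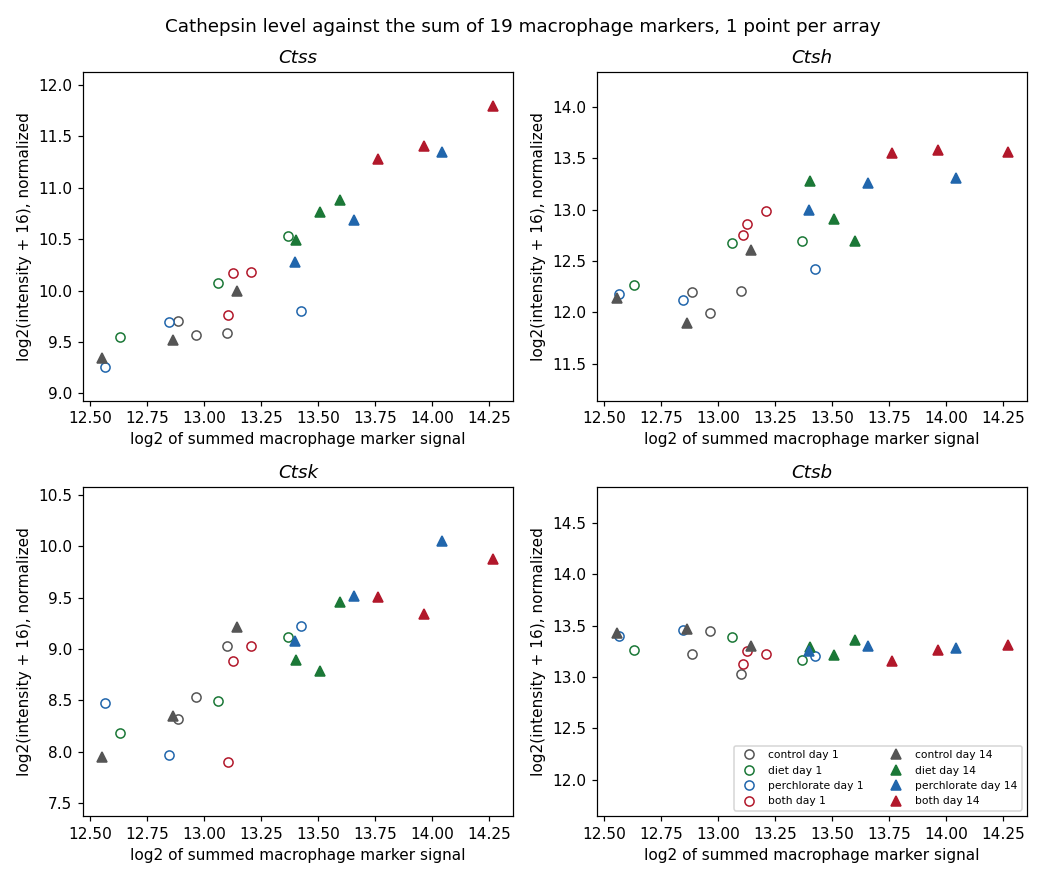
Level of Ctss, Ctsh, Ctsk and Ctsb on each of the 24 arrays (vertical axis, log2(intensity + 16)) against the log2 of the summed signal of 19 macrophage markers (horizontal axis); open circles are day 1, filled triangles day 14, colours the treatments. Ctss climbs along with the macrophage sum, Ctsh lies between 13.55 and 13.58 in the 3 arrays given both at day 14, and Ctsb stays between 13.03 and 13.47 throughout.

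The genes whose levels followed each cathepsin most closely over the same 22 arrays, out of 10642 candidates, also differed. For Ctss they were C1qa (r = 0.96), a chain of complement component C1q, Fcer1g (0.96) and Aif1 (0.95), all 3 on the macrophage list, and over all 24 arrays these values were 0.87, 0.92 and 0.92. For Ctsh they were Sat1 (0.96), which acetylates spermidine and spermine, Ap1s2 (0.95), a subunit of the adaptor that sorts cargo between Golgi and endosomes, and Itih3 (0.95), a hyaluronan-binding heavy chain. Over 24 arrays they were 0.95, 0.94 and 0.95. For Ctsk they were Pla1a (0.94), Hsd11b1 (0.92) and Colec12 (0.92), and 0.90, 0.91 and 0.77 over 24 arrays. For Ctsc they were Plek (0.92), Fibin (0.91) and the Fc receptor Fcgr1a (0.91), which over 24 arrays fell to 0.74, 0.82 and 0.65. Sat1 was also the gene nearest to Ctsl (0.87, and 0.76 over 24 arrays). The closest for Ctsd was Laptm4a (0.85, and 0.76 over 24 arrays), a lysosomal membrane protein, for Ctsb the RNA helicase Ddx6 (0.82 and 0.62), for Ctsz Il6r (0.81 and 0.74) and for Ctsa Rnd3 (0.74, but 0.13 over all 24 arrays). Between the cathepsins themselves, 8 of 36 pairs had an r above 0.7 over the 22 arrays and 5 were below 0, with a median of 0.34. The highest was Ctsc with Ctss (0.90) and the lowest Ctsb with Ctsl (-0.56).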

How the data were processed

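Per the submitters' processing notes the authors deposited GCOS signal intensity, linear, 1 value per probe set and array; its version, settings and scaling target are not given in the sources used here. Trimmed mean intensity (2% trimmed) ran from 320.3 to 487.4 over the 24 arrays, and their number limits the precision; detection calls were not used here. Replicates were grouped by title; 0 pairs of arrays were identical.

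Values were taken as log2(intensity + 16) and quantile normalized, and probe sets under the 40th percentile of mean signal were left out, along with 57 controls. limma 3.58.1 in R 4.3.3 fitted 1 mean per group over all arrays, with eBayes, a mean-variance trend and two-sided tests in 14 comparisons. The script was tested on simulated data. Fold changes on this scale understate those of dim probe sets.

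The annotation gave 20826 probe sets 1 symbol, 436 several and 9780 none; only single symbols were named. All 9 members were named; of each other list, up to 4 called genes with the smallest p, otherwise up to 2, and the 3 genes most correlated with each member. Members, lists, motifs and alternatives were chosen with earlier results of these data known. Alternatives changed the normalization, pseudocount (1 or 64), filter, samples in the fit, array weights, use of probe sets and each replicate.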

Additional observations from a re-analysis of the deposited data

How the results depend on the processing

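No paired analysis was possible because the replicate numbers in the labels differ in every group. Of 12 calls of single cathepsins 6 held under every alternative and none changed sign; of 114 differences not called, 16 were called under at least 1 alternative.

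For the diet at day 14 the count of cathepsins called, 0, became 1 with a filter at the 60th percentile, 2 without the 2 arrays that stood apart, 3 with array weights and 1 when the fit held the compared groups alone, and it was 0 to 1 when 1 array was left out. For perchlorate at day 14 the count of 2 became 4 without the 2 arrays and 5 with array weights (1 to 2 with 1 array left out). For both at day 1 the count of 1 became 0 with median centring, with no filter and when the fit held the compared groups alone, 2 with array weights, and 0 to 0 with 1 array left out. For both at day 14 the count of 3 became 5 with array weights (2 to 3 with 1 array left out), 2 as deposited, with median centring and on the mean of probe sets, and 4 without the 2 arrays and when the fit held the compared groups alone. For perchlorate added to the diet at day 14 the count of 0 became 2 with array weights and 1 when the fit held the compared groups alone, and for the perchlorate effect between days 2 with array weights (0 to 1 with 1 array left out). The main effect of the diet gave 2 to 4 with 1 array left out. That of perchlorate, 2, became 1 as deposited, with median centring and with no filter, 4 with array weights, and 1 to 2 with 1 array left out. The cause was not tested.

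Counts over all probe sets moved more: the 665 of perchlorate at day 14 ran from 225 to 1762 and the 1649 of both at day 14 from 808 to 4371. The 41 of the diet at day 14 ran from 6 to 915, the 112 of both at day 1 from 17 to 678, the 890 of the main diet effect from 522 to 2883 and the 596 of the main perchlorate effect from 295 to 1852. On the values as deposited the median of all probe sets was 0.132 for the diet on either day, 0.203 for both at day 1, -0.148 for perchlorate added to the diet at day 14 and 0.122 for the main diet effect. The share of calls that were higher went from 59.6% to 94.3% for the main diet effect (73.6% with median centring), from 74.1% to 94.7% for both at day 1 (85.8%), from 80% to 100% for the diet at day 1 and from 61.5% to 30.4% for perchlorate added to the diet at day 14.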
